A study of Mus musculus with 16 samples.

Results

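The 47 genes described here encode the general splicing regulators of the cell: 11 serine- and arginine-rich (SR) proteins, 6 SR-related proteins, 20 heterogeneous nuclear ribonucleoproteins (hnRNPs), 4 factors that recognise the 3′ splice site and the branch point, and 6 kinases that phosphorylate SR proteins. The rule that picks them uses names and no measured value, although the set was proposed with earlier results of these data known. Every Ensembl gene whose mouse symbol is Srsf followed by a number, or begins with Hnrnp, was taken, together with Tra2a, Tra2b, Srrm1, Srrm2, Son, Acin1, U2af1, U2af2, Sf1, Sf3b1, Clk1 to Clk4, Srpk1 and Srpk2, and 2 pseudogene symbols ending in -ps were dropped. The deposited table held 89407 features, 53464 of them Ensembl genes and the other 35943 assembled by the authors.

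Medullary thymic epithelial cells (mTEC) display peripheral self-antigens to developing T cells, and they were sorted from mice aged 4-6 weeks as mature (CD45- EpCAM+ Ly51- UEA+ MHCII high) and immature (the same gate with MHCII low) cells, 10000 cells per population. Mice with a thymus knockout (tKO) were Rbfox1 lox/lox or Rbfox2 lox/lox with Foxn1 wildtype/cre, so that Cre was expressed from the Foxn1 locus in thymic epithelium, and controls carried the same floxed alleles with Foxn1 wildtype/wildtype. The labels give the strain as C57BL/6, whereas the study's methods describe the Rbfox1 and Rbfox2 mutants as kept on a mixed background of 129S2/Sv and C57BL/6J. Each of the 2 lines gave 2 tKO and 2 control mice, 1 female and 1 male of each genotype, and each of the 8 mice gave 1 mature and 1 immature library, making 16 poly(A) RNA libraries. Cre and the loss of an RBFOX gene always came together in this design, and every mouse carried a floxed Rbfox1 or a floxed Rbfox2 allele, so that no library came from an animal without one.

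SR proteins bind exonic enhancer sequences through RNA recognition motifs and recruit the spliceosome through domains rich in arginine-serine dipeptides, whose phosphorylation by the SRPK kinases in the cytoplasm and the CLK kinases in the nucleus sets their location and activity. The hnRNPs coat nascent transcripts and often act in opposition to SR proteins, at silencer sequences. The general machinery then meets both sets of proteins at the 3′ splice site, where SF1 and the U2AF heterodimer mark the branch point, the polypyrimidine tract and the terminal AG before SF3B1 and the U2 particle take over.

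Total counts were 3737884 to 4636367 in mature libraries and 1506134 to 2430287 in immature libraries, and levels are given as CPM, read counts scaled to library size with normalization by the trimmed mean of M values (TMM). In the Rbfox2 line, Rbfox2 stood at 9.49 to 16.1 CPM in tKO and 56.6 to 57.6 CPM in control mature libraries, and at 23.4 to 37.5 against 93.8 to 105 CPM in immature libraries. In the Rbfox1 line, Rbfox1 stood at 29.7 to 33.9 CPM in tKO and 48.2 to 52.2 CPM in control mature libraries but at 151 to 152 against 159 to 163 CPM in immature libraries. A count over the whole gene also takes reads outside the deleted exons, so the Rbfox1 count is a weak check of the deletion. In control mice, summed markers of mature mTEC were 19682 to 22256 CPM in mature and 12027 to 13038 CPM in immature libraries, and those of immature mTEC were 1044 to 1490 and 6108 to 8685 CPM.

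The sorted populations also differed in markers of other cells. In control mice the myeloid list summed to 229 to 319 CPM in mature and 16.8 to 26.9 CPM in immature libraries (3 of 3 tested genes higher in mature cells), and the thymocyte and blood cell list to 47.8 to 57.9 and 3.42 to 23.2 CPM (3 of 3 higher). All 3 B cell markers were also higher in mature cells, with summed levels of 12.5 to 20.8 and 0 to 2.56 CPM. Fibroblast markers were lower in mature cells for 4 of 5 genes (366 to 460 against 327 to 2043 CPM), as were all 3 endothelial markers and all 4 tuft cell markers. The part these differences play in the changes below was not tested, and in bulk libraries fewer cells of a type and less RNA per cell cannot be told apart.

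In control mice most general splicing factors were lower in mature than in immature mTEC, by small amounts, and fewer were in tKO mice. In control mice, 28 of the 45 members tested fell (edgeR quasi-likelihood test, Benjamini-Hochberg adjusted p under 0.05 over 16058 features), against 30.4% of all features that were lower. The single member that rose was Hnrnpll, against 36.6% of all features, and 16 members did not pass the test. The median log2 fold change over the members was -0.22, beside 0.026 over all features tested and -0.11 over the features at 100 CPM or more, of which 1065 of 2426 fell. The count depended on the setting, at 16 of 47 members with no filter on low counts (9.03% of all features), 18 of 47 under DESeq2 (16.45%) and 18 of 44 with libraries thinned to the smallest total (23.7%). With at least 10 counts required in every library it was 13 of 44, a smaller share than the 31.05% of all features. Srrm2, a core protein of nuclear speckles, and Hnrnpa3 were left out by the filter on low counts, with 21 and 90 counts over the 16 libraries.

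The sizes of these differences were modest for this comparison. The median absolute log2 fold change was 0.23 over the members and 0.48 over features at 10 CPM or more, and 1 member, Srsf12, passed both the test and a 2-fold threshold, a step reached by 11.0% of all features in the lower direction. In 17 of the 45 members every control mature library lay below every control immature library, as 24.8% of all features did, 1 member lay entirely above, and the libraries of the other 27 overlapped. By role, 6 of 11 SR proteins, 1 of 5 SR-related proteins, 14 of 19 hnRNPs, 3 of 4 factors of the 3′ splice site and 4 of 6 kinases fell in control mice.

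The tKO mice, which share no library with the control mice, gave fewer calls. There 16 of 45 members fell and Hnrnpll rose, against 29.3% and 36.5% of 15831 features, and the median log2 fold change over members was -0.14. With at least 10 counts in every library 10 of 44 members fell, against 31.12% of all features. In 13 members all mature tKO libraries lay below all immature tKO libraries, against 23.3% of all features. All 17 members called in tKO mice were also called in control mice in the same direction, and 12 were called in control mice alone. Called or not, 37 of 45 members had the same sign in both sets of mice, beside 91.56% of 15539 features. A difference between control and tKO mice was tested as an interaction over all 16 libraries, and no member passed it (edgeR), as 0.0% of all features did; DESeq2 also called 0, and 3 members had an unadjusted p under 0.05, among them Srsf2 with a log2 difference of 0.31 ± 0.11 (SE) between tKO and control mice.

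**Figure D1:**
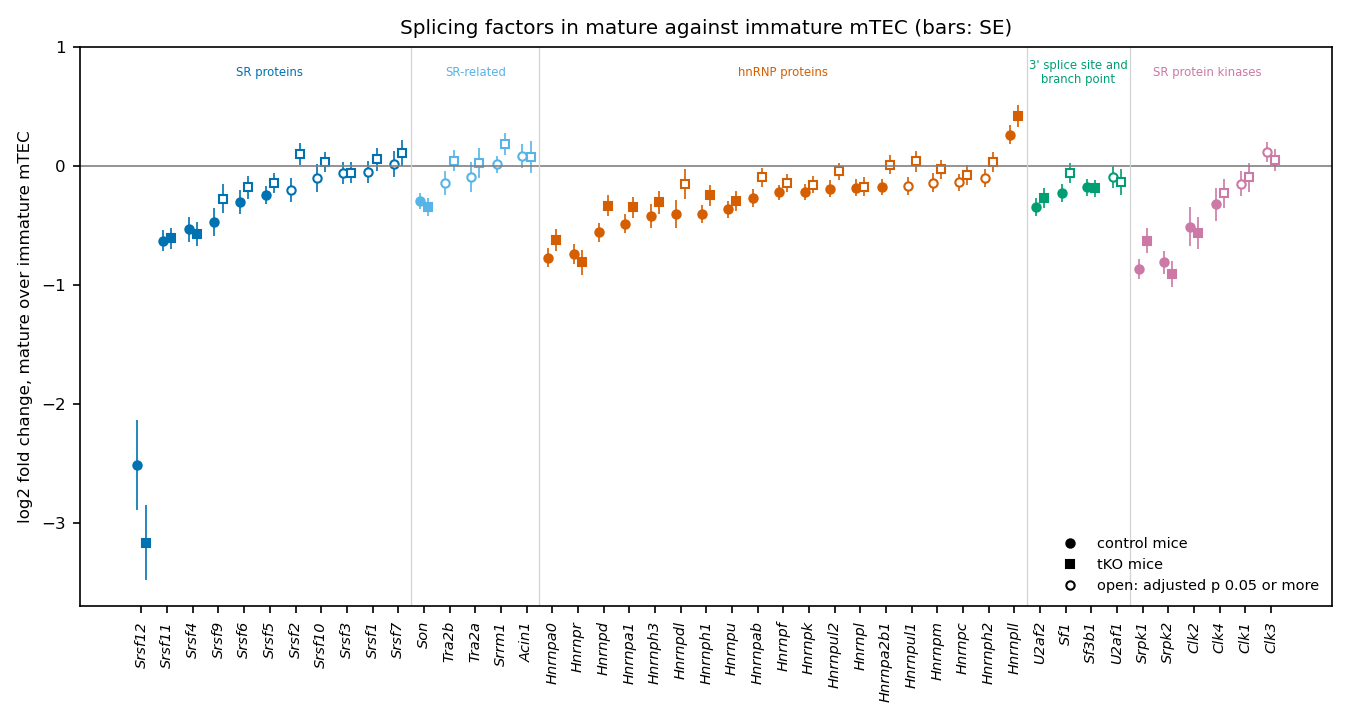
Log2 fold change of mature over immature mTEC (y axis) for each of the 45 tested members (x axis, grouped by role), in control mice (circles) and tKO mice (squares), with bars for the standard error and open symbols for an adjusted p of 0.05 or more. Srsf12 lies lowest at -2.51 and -3.16, Srpk1, Srpk2, Hnrnpa0, Hnrnpr and Srsf11 lie below -0.60 in both sets of mice, and Hnrnpll lies above 0 at 0.26 and 0.42.

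Among the kinases, both SRPKs were lower in mature cells. Srpk1, the main cytoplasmic SR protein kinase, was at 85.3, 79.2, 67.4 and 75.5 CPM in the 4 control mature libraries and at 141, 162, 122 and 136 CPM in the immature libraries of the same mice. In tKO mice it was at 80.5, 89.2, 68.1 and 84.6 CPM in mature and 145, 154, 99.4 and 106 CPM in immature libraries. No mature library reached the lowest immature library, and the immature libraries of Rbfox2 tKO mice were the lowest of their population. Srpk1 was 1.82-fold lower in control (log2 fold change -0.86 ± 0.083 SE, edgeR adjusted p = 3.91e-07) and 1.54-fold lower in tKO mice (-0.63 ± 0.10, edgeR adjusted p = 3.82e-05).

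Srpk2, its close relative, was at 49.8, 45.8, 50.2 and 42.9 CPM in control mature and 81.2, 73.7, 87.0 and 91.4 CPM in control immature libraries. The tKO libraries held 43.2, 44.5, 46.9 and 50.5 CPM in mature and 82.2, 104, 84.8 and 76.4 CPM in immature cells. The mature libraries of all 8 mice fell within 42.9 to 50.5 CPM and did not overlap the immature libraries. Srpk2 was 1.75-fold lower in control (edgeR adjusted p = 4.11e-06) and 1.87-fold lower in tKO mice (edgeR adjusted p = 1.16e-06).

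The CLKs, which phosphorylate SR proteins inside the nucleus, moved less between the populations. Clk2 fell by 0.51 ± 0.17 and 0.56 ± 0.13 on the log2 scale in control and tKO mice (edgeR adjusted p = 0.0141 and 0.00122). Clk4 fell by 0.32 ± 0.14 in control mice (edgeR adjusted p = 0.0469), and its difference in tKO mice, -0.23 ± 0.12, did not pass. Clk1 (-0.15 ± 0.11 and -0.10 ± 0.12) and Clk3 (0.12 ± 0.085 and 0.050 ± 0.094) passed in neither with both lines together. In the Rbfox1 line alone Clk1 passed in control and tKO mice (-0.35 and -0.30, edgeR adjusted p = 0.0148 and 0.0284). In the Rbfox2 line alone it was at 0.17 and 0.19 and did not pass. The control calls of Clk2 and Clk4 held in 11 and 4 of 18 other settings, and the levels of both differed between the mouse lines, as described below. In Rbfox1 control mice alone Clk2 and Clk4 passed at -0.70 and -0.55 (edgeR adjusted p = 0.00545 and 0.00317). In Rbfox2 control mice alone they were at -0.19 and 0.10 and did not pass.

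The SR proteins divided into members that fell in both sets of mice, members that fell in control mice alone and members that passed in neither. Srsf12, an SR protein of restricted expression that can repress splicing, fell 5.70-fold in control and 8.96-fold in tKO mice (log2 fold change -2.51 ± 0.37 and -3.16 ± 0.31, edgeR adjusted p = 3.23e-05 and 9.23e-08). Its level was low throughout, at 1.15 to 2.45 CPM in the 8 mature libraries (median 1.33) and 4.48 to 17.9 CPM in the 8 immature libraries (median 10.7), from 5 to 10 and 11 to 30 counts per library. These few counts separated the populations in all mice but leave the size of the fold loosely set.

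Srsf11, which associates with the U2AF heterodimer at 3′ splice sites, was at 103, 119.5, 104 and 97.1 CPM in control mature and 173, 188, 130 and 165 CPM in control immature libraries. The tKO libraries held 99.7, 119, 96.8 and 101 CPM in mature and 165, 182, 146 and 147 CPM in immature cells. The populations did not overlap in either genotype. Srsf11 fell by 0.63 ± 0.092 in control and 0.61 ± 0.087 in tKO mice on the log2 scale (edgeR adjusted p = 2.73e-05 and 7.73e-06).

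Srsf4, a regulator of exon inclusion with a long arginine-serine domain, ranged over 49.0 to 63.8 CPM in mature (median 58.7) and 73.5 to 101 CPM in immature libraries (median 82.6). It fell by 0.53 ± 0.10 and 0.57 ± 0.10 on the log2 scale (edgeR adjusted p = 0.000332 and 6.7e-05), with no overlap between populations, but 43.0% of its exon bases are shared with Gm12992 on the opposite strand. Srsf9 fell by 0.47 ± 0.12 in control mice (edgeR adjusted p = 0.00293) and was at -0.27 ± 0.12 in tKO mice, where it did not pass. With both lines together, Srsf6 and Srsf5 passed in control mice alone, at -0.30 ± 0.10 and -0.24 ± 0.079 (edgeR adjusted p = 0.018 and 0.0134), and kept that call in 8 and 10 of 18 other settings. Srsf6 passed in Rbfox1 control and tKO mice (-0.54 and -0.42, edgeR adjusted p = 0.000409 and 0.00258) but was at -0.016 in Rbfox2 control mice. Srsf5 passed in Rbfox2 control mice (-0.27, edgeR adjusted p = 0.0281) and not in Rbfox1 control mice (-0.19).

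The best known SR proteins, Srsf1, Srsf2, Srsf3, Srsf7 and Srsf10, did not pass in control or tKO mice with both lines together. In the lines taken alone, Srsf1 and Srsf3 passed in control mice in opposite directions, at -0.28 and -0.30 on the log2 scale in the Rbfox1 line (edgeR adjusted p = 0.0185 and 0.0157) and 0.22 and 0.22 in the Rbfox2 line (edgeR adjusted p = 0.0396 and 0.0271). Srsf2 and Srsf10 passed in Rbfox1 control mice alone (-0.46 and -0.34, edgeR adjusted p = 0.000888 and 0.0392). Srsf7 passed in Rbfox2 control mice alone (0.30, edgeR adjusted p = 0.0311). In tKO mice Srsf3 passed in the Rbfox1 line (-0.28, edgeR adjusted p = 0.0228). Srsf1, Srsf2 and Srsf7 passed in Rbfox2 tKO mice (0.32, 0.30 and 0.42, edgeR adjusted p = 0.0153, 0.0348 and 0.00891). With both lines together, Srsf2, which binds exonic enhancers of both purine and pyrimidine type, was at -0.20 ± 0.10 in control and 0.10 ± 0.094 in tKO mice (edgeR adjusted p = 0.0992 and 0.345). Its level was 187 to 238 CPM in mature and 175 to 300 CPM in immature libraries, so the populations overlapped over most of their range. Srsf2 shares 15.6% of its exon bases with Mettl23 and 9.74% with Mfsd11, both on the opposite strand.

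**Figure D2:**
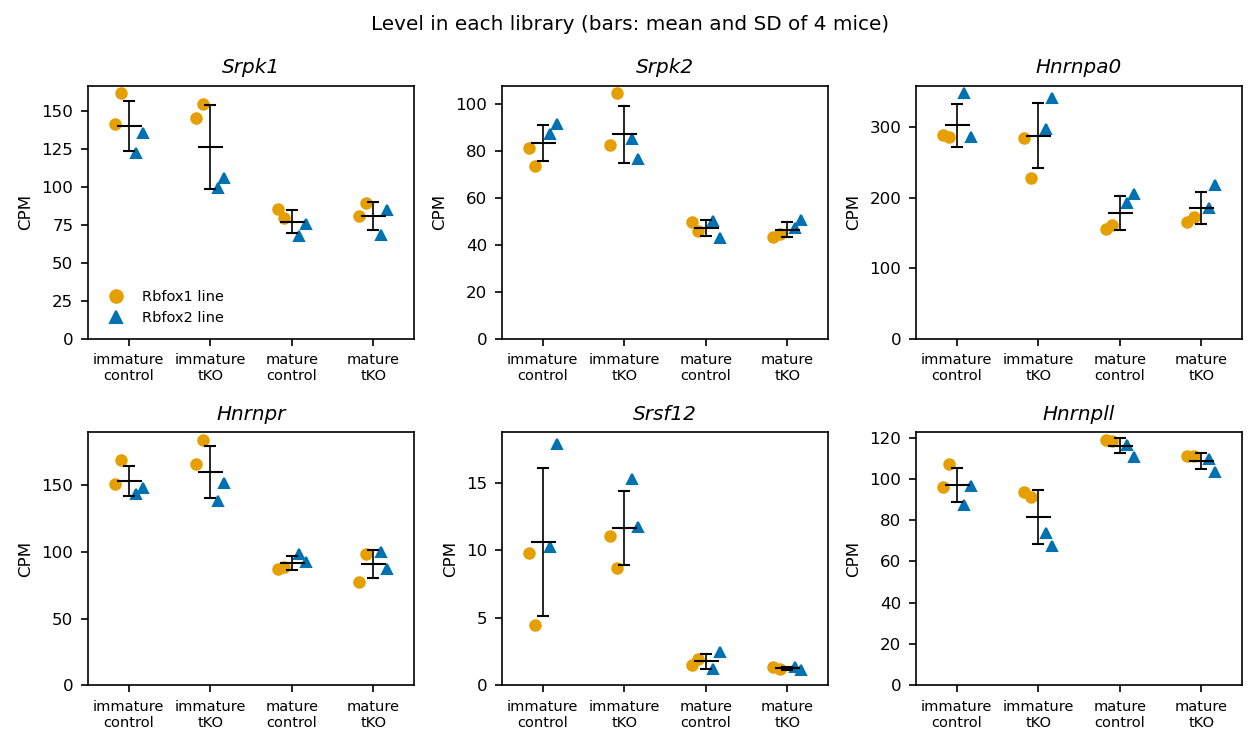
Level of 6 members in each library (y axis, normalized CPM on a linear axis from 0), split by population and genotype (x axis), with circles for the Rbfox1 and triangles for the Rbfox2 line and bars for the mean and SD of 4 mice. Srpk2 lies at 42.9 to 50.5 CPM in mature and 73.7 to 104 CPM in immature libraries, Srsf12 at 1.15 to 2.45 and 4.48 to 17.9 CPM, and Hnrnpll at 103 to 119 and 67.5 to 107 CPM.

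Of the SR-related proteins, SON was lower in mature cells. SON is a large nuclear speckle protein needed for the splicing of weak introns, and its level was 425 to 518 CPM in mature (median 473) and 539 to 665 CPM in immature libraries (median 594). The populations did not overlap, and Son fell by 0.29 ± 0.071 and 0.35 ± 0.075 on the log2 scale (edgeR adjusted p = 0.00198 and 0.000589). Tra2a and Tra2b, which bind purine-rich exonic enhancers, were at -0.094 ± 0.12 and -0.15 ± 0.10 in control mice, and Srrm1, a coactivator that bridges exonic enhancers and snRNPs, at 0.013 ± 0.069. Acin1, part of the apoptosis- and splicing-associated protein complex, was at 0.083 ± 0.099, and none of these 4 passed in either genotype with both lines together. Tra2a and Tra2b passed in Rbfox1 control mice alone (-0.32 and -0.31, edgeR adjusted p = 0.0332 and 0.0356). They were at 0.22 and 0.059 in Rbfox2 control mice and did not pass there. Srrm1 passed in Rbfox2 tKO mice alone (0.33, edgeR adjusted p = 0.0357).

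The hnRNPs gave the most calls. Hnrnpa0, which binds AU-rich elements in mRNA, was at 155, 161, 192 and 205 CPM in control mature and 289, 287, 349 and 286 CPM in control immature libraries. In tKO mice it was at 166, 172, 185 and 218 CPM in mature and 285, 228, 297 and 341 CPM in immature libraries. The lowest immature library, from an Rbfox1 tKO mouse, still lay above the highest mature library, from an Rbfox2 tKO mouse. Hnrnpa0 was 1.70-fold lower in control and 1.54-fold lower in tKO mice (edgeR adjusted p = 7.5e-07 and 1.12e-05).

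Hnrnpr, a relative of SYNCRIP that travels with mRNA to the cytoplasm, was at 87.4, 88.7, 98.7 and 92.4 CPM in control mature and 151, 169, 144 and 148 CPM in control immature libraries. The tKO libraries held 77.3, 98.9, 100 and 87.4 CPM in mature and 166, 184, 138 and 152 CPM in immature cells. The mature and immature libraries were again fully separate, and the gene was 1.67-fold and 1.75-fold lower (edgeR adjusted p = 1.65e-06 and 2.58e-06). Hnrnpd, or AUF1, which speeds decay of mRNAs with AU-rich elements, fell by 0.56 ± 0.080 in control and 0.34 ± 0.088 in tKO mice (edgeR adjusted p = 2.22e-05 and 0.00282).

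Hnrnpa1, the classic antagonist of SR proteins in splice site choice, ranged over 601 to 787 CPM in mature (median 693) and 790 to 1128 CPM in immature libraries (median 925). It fell by 0.48 ± 0.083 and 0.35 ± 0.088 on the log2 scale (edgeR adjusted p = 0.000121 and 0.00228), and it was lower in the mature library of each of the 8 mice. Hnrnpab, a relative of Hnrnpd, and Hnrnpa2b1, a close relative of Hnrnpa1, fell in control mice by 0.27 ± 0.079 and 0.18 ± 0.068 (edgeR adjusted p = 0.00739 and 0.0303). In tKO mice they were at -0.10 ± 0.082 and 0.012 ± 0.078 and did not pass with both lines together. In the Rbfox1 line alone they passed in control mice (-0.42 and -0.31, edgeR adjusted p = 0.000975 and 0.00856). In Rbfox2 control mice they were at -0.088 and -0.025 and did not pass. Hnrnpab also passed in Rbfox1 tKO mice (-0.27, edgeR adjusted p = 0.0207). Hnrnpl, which binds CA repeats, fell in control mice by 0.18 ± 0.070 (edgeR adjusted p = 0.0317), and the control calls of Hnrnpl and Hnrnpa2b1 each held in 6 of 18 other settings. Hnrnpl was at -0.24 in Rbfox1 and -0.10 in Rbfox2 control mice and passed in neither line alone. It passed in Rbfox1 tKO mice (-0.28, edgeR adjusted p = 0.0177).

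Hnrnpll, a paralog of Hnrnpl known for directing the exon usage of CD45 (Ptprc) in lymphocytes, was the exception. Its control mature libraries were at 119, 119, 116 and 111 CPM and its immature libraries at 96.1, 107, 87.5 and 96.8 CPM. In tKO mice the mature libraries were at 111, 111, 110 and 103 CPM and the immature libraries at 93.8, 91.2, 73.7 and 67.5 CPM. The groups did not overlap within either genotype, and mature was higher than immature in 8 of 8 mice. Hnrnpll rose by 0.26 ± 0.078 in control and 0.42 ± 0.092 in tKO mice on the log2 scale (edgeR adjusted p = 0.00836 and 0.000583). Markers of thymocytes, B cells and myeloid cells were higher in the same libraries, at the levels given above, and their part in the rise of Hnrnpll was not tested.

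At the 3′ splice site, U2af2 encodes the U2AF subunit that binds the polypyrimidine tract, and it fell by 0.34 ± 0.072 in control and 0.27 ± 0.0875 in tKO mice (edgeR adjusted p = 0.000634 and 0.0122). Its level was 151 to 178 CPM in mature and 186 to 236 CPM in immature libraries, with no overlap. Its partner U2af1, which reads the terminal AG, was at -0.091 ± 0.094 and -0.13 ± 0.11 and passed in neither set of mice with both lines together. In Rbfox1 tKO mice alone U2af1 passed at -0.32 (edgeR adjusted p = 0.0297). Sf3b1, the U2 snRNP subunit that clamps the branch point, fell by 0.18 ± 0.073 and 0.19 ± 0.074 (edgeR adjusted p = 0.0422 and 0.0331), but the control call held in 2 of 18 other settings. In the Rbfox1 line alone it passed in control and tKO mice (-0.26 and -0.26, edgeR adjusted p = 0.033 and 0.0276). In the Rbfox2 line alone it was at -0.064 and -0.13 and did not pass. Sf1, the branch point binding protein, fell by 0.23 ± 0.074 in control mice alone (edgeR adjusted p = 0.0148). By line, it passed in Rbfox1 control mice (-0.26, edgeR adjusted p = 0.0356) and not in Rbfox2 control mice (-0.17).

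In control mice, 14 members were called lower in each of the 18 other settings with no fold threshold, or for Srsf12 in the 16 in which it was tested, and 9 members were in tKO mice, with Srsf12 tested in 17. The 7 that were in both were Srpk1, Srpk2, Srsf4, Srsf11, Srsf12, Hnrnpa0 and Hnrnpr. No share of all features that kept a call in every setting is given, so these counts cannot be read as particular to the members. With each mouse line taken alone, 31 of 46 members fell in Rbfox1 control mice, against 23.78% of all features. In Rbfox2 control mice 18 of 45 fell and 4 rose, against 25.94% and 33.77% of all features.

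Promoter sequence is shown for 4 of the members that were lower in mature cells in each of these settings (Hnrnpa0, Hnrnpr, Srsf11 and Srpk1). It is also shown for 2 members, Srsf7 and Tra2a, that differed strongly between the mouse lines. These did not pass between the populations with both lines together. Each is the 200 bases before the RefSeq start of the gene in GRCm38.p6, read 5′ to 3′ on the gene's own strand, with matches to 5 short motifs on either strand in capitals.
Hnrnpa0, chr13:58128557-58128756, strand -: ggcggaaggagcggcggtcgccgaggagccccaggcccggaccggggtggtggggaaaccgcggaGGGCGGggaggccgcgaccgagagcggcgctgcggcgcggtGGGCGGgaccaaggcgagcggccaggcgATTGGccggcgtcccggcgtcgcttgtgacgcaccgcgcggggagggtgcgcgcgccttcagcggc
Hnrnpr, chr4:136310742-136310941, strand +: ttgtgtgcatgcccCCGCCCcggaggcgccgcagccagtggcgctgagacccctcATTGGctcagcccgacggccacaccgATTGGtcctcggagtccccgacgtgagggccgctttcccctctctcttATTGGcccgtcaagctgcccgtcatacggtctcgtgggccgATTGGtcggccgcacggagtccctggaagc
Srsf11, chr3:158036607-158036806, strand -: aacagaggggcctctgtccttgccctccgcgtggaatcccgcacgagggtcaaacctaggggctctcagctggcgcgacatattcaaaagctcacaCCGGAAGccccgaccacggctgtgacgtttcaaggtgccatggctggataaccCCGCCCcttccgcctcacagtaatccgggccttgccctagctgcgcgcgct
Srpk1, chr17:28622522-28622721, strand -: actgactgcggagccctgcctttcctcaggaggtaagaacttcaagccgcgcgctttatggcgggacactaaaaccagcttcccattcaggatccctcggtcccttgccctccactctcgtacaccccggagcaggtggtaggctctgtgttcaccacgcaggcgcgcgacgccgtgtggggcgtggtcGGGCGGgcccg
Srsf7, chr17:80207306-80207505, strand -: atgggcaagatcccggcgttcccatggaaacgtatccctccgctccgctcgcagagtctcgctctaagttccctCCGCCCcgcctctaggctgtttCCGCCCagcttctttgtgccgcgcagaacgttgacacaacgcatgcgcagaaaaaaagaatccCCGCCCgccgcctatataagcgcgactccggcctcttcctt
Tra2a, chr6:49264053-49264252, strand -: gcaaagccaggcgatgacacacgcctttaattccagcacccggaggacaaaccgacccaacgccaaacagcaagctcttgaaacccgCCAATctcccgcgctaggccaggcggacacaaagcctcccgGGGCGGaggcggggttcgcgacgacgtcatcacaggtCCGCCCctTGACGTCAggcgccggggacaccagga

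The motifs were the GC box GGGCGG, the CCAAT box CCAAT, the TATA box TATAAA, the ETS site CCGGAAG and the cAMP response element TGACGTCA, each searched with its reverse complement in the 250 bases before the start. Of the 47 members, 43 had such a window in the table, and for 31 of these the RefSeq start lay within 200 bases of the annotated start of the gene. A GC box was present in 33 of the 43 (76.7%), beside 32.7% of the 32851 promoter windows in the table, and a CCAAT box in 21 (48.8%) beside 33.8%. The TATA letters were present in 3 (6.98%, beside 12.4%), the ETS letters in 8 (18.6%, beside 6.91%) and the cAMP response element in 2 (4.65%, beside 1.55%), of which 1 was Tra2a. The median G and C content of the searched windows was 63.6% for the members and 52.4% for all. Members were counted by 1 window each, the one nearest to the annotated start. The table was counted by every window in it, whether or not the gene was expressed in these cells, so the 2 sets are not alike. Hnrnpa0 and Hnrnpr carried both GC and CCAAT boxes and Srpk1 a GC box alone. Srsf7, which did not pass between the populations with both lines together, carried 3 GC boxes.

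Compared per kilobase of exon, the members covered a wide range of levels in control mature mTEC. Hnrnpa1 was highest at 222 ± 20.2 CPM per kb (SD, n = 4), followed by Hnrnpab at 186 ± 16.3 and Hnrnpa2b1 at 121 ± 4.72 CPM per kb. Srsf2 was the highest SR protein at 70.3 ± 5.20 CPM per kb, followed by Srsf5 at 52.5 CPM per kb. hnRNPs thus took the top places of this order, and the kinases were further down, with Clk1 at 11.0, Srpk1 at 6.21 and Srpk2 at 3.39 CPM per kb.

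Hnrnpr, at 4.14 CPM per kb, lay just above Srpk2, and its level was divided by 22199 bases of exon. Srsf12 at 0.558, Hnrnpa3 at 0.420 and Srrm2 at 0.0299 CPM per kb closed the order. Hnrnpa3 and Srrm2 held 90 and 21 counts over all 16 libraries. Their places show the reads counted to these genes and may not show their expression. Neighbours in this order overlapped over their 4 libraries in 38 of 46 pairs, and the steps that did not overlap included Hnrnpab above Hnrnpa2b1, Hnrnpa2b1 above Hnrnpk, Hnrnpf above Srsf2, Hnrnpr above Srpk2 and Srpk2 above Srsf12. In immature cells Hnrnpa1 was at 312 ± 32.6, Hnrnpab at 224 and Hnrnpa2b1 at 138 CPM per kb, and the order over the members was nearly the same (Spearman 0.992 over 47 genes, a description). Whether the authors' assembled loci take reads of Srrm2 or Hnrnpa3 was not tested.

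**Figure D3:**
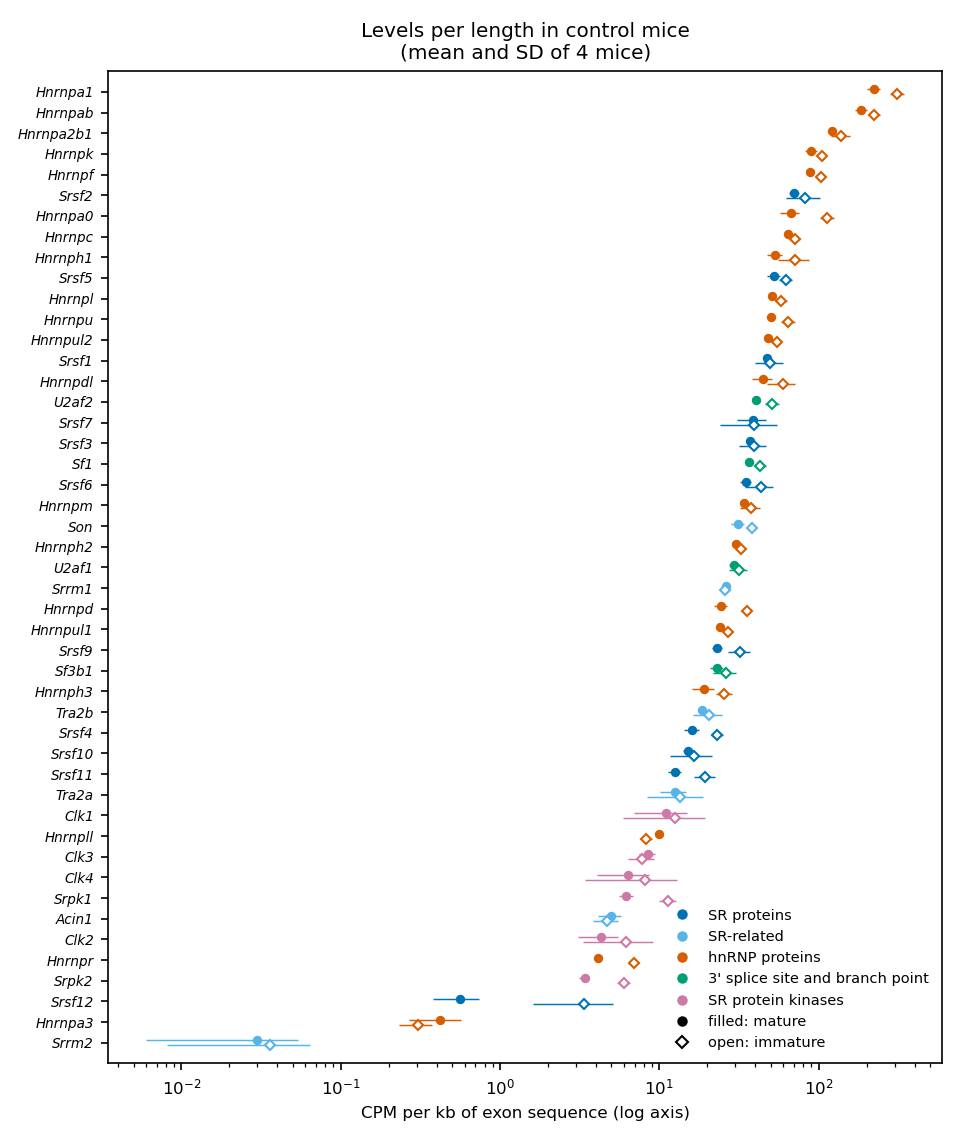
Level of each of the 47 members in control mature (filled) and control immature (open) mTEC (x axis, normalized CPM per kb of exon on a log axis, mean and SD of 4 mice), ordered by the mature level and coloured by role. The order runs from Hnrnpa1 at 222 CPM per kb to Srrm2 at 0.0299 CPM per kb, and the immature values follow it closely. Srrm2 held 21 counts over all 16 libraries, so its place may not show its expression.

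The wider splicing machinery, taken as 9 lists of 93 other genes, gave 47 of 92 tested genes lower and 6 higher in mature cells of control mice. Of all features, 30.4% were lower and 36.6% higher in control mice. In tKO mice 28 of the listed genes were lower and 10 higher, against 29.3% and 36.5% of all features. The share of listed genes that fell in tKO mice was thus close to that of all features. The counts and values by list that follow are those of control mice. Among U1 and U2 snRNP and Sm proteins 9 of 12 fell, including the Sm ring subunit Snrpf (-0.48), and 7 of 9 SF3A and SF3B subunits fell, including Sf3b4 (-0.70). Of the helicases 5 of 9 fell, including the U2AF partner Ddx39b (-0.83), and in the minor spliceosome 3 fell and 2 rose of 8, with Snrnp48 at -0.92 and Snrnp25 at 1.93. The U4/U6 and U5 proteins gave 9 lower of 20, the Prp19 complex 3 lower and 1 higher of 10, the exon junction complex 4 and 1 of 8, nonsense-mediated decay 5 and 2 of 10, and nuclear import and arginine methylation 2 lower of 6.

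No member passed the test in any comparison of tKO with control mice. In the fits of mature libraries Hnrnpa3 was tested and Srsf12 was not, so that 45 members were tested as before. In mature cells 0 of 45 members passed in the Rbfox1 line (edgeR; 0.0222% of all features were called) and 0 in the Rbfox2 line (0.0555%), with 0 and 2 members at an unadjusted p under 0.05. In immature cells 0 passed in the Rbfox1 line (0.0383%) and 0 in the Rbfox2 line (0.0919%), with 6 and 3 members at an unadjusted p under 0.05. Over both lines together 0 passed in mature (0.0345%) and in immature cells (0.111%), with 0 and 6 such members, and DESeq2 called 0 members in each of these comparisons. An unadjusted p under 0.05 also arises without any difference, so the counts of such members are a description and not calls.

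The members nearest to a call did not share a role. In the Rbfox1 line the lowest p was that of U2af1 in mature cells (log2 fold change -0.22 ± 0.11, edgeR adjusted p = 0.9996) and of Srsf2 in immature cells (-0.39 ± 0.11, edgeR adjusted p = 0.513). In the Rbfox2 line it was that of Tra2a in mature cells (0.31 ± 0.12, edgeR adjusted p = 0.859) and of Hnrnpll in immature cells (-0.37 ± 0.14, edgeR adjusted p = 0.717). Over both lines, Tra2a was at 0.15 in mature and Hnrnpdl, a relative of Hnrnpd, at -0.29 in immature cells. All 6 immature members at an unadjusted p under 0.05 in the Rbfox1 line, Srsf2, Srsf10, Tra2b, Hnrnpd, Hnrnpab and Hnrnpa2b1, had negative log2 fold changes. None of them was called, and their shared sign was not tested.

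The tKO effects of the 2 lines were also compared with each other, and 0 members differed in mature (edgeR; 0.00555% of all features) or immature cells (0.00766%), with 2 and 1 members at an unadjusted p under 0.05 and 0 called by DESeq2. With 2 mice per genotype and line, these comparisons leave changes of the sizes above undecided. The median absolute log2 fold change over members was 0.052 and 0.084 in mature cells of the Rbfox1 and Rbfox2 line and 0.12 and 0.077 in immature cells, beside 0.091, 0.10, 0.13 and 0.14 over features at 10 CPM or more.

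**Figure D4:**
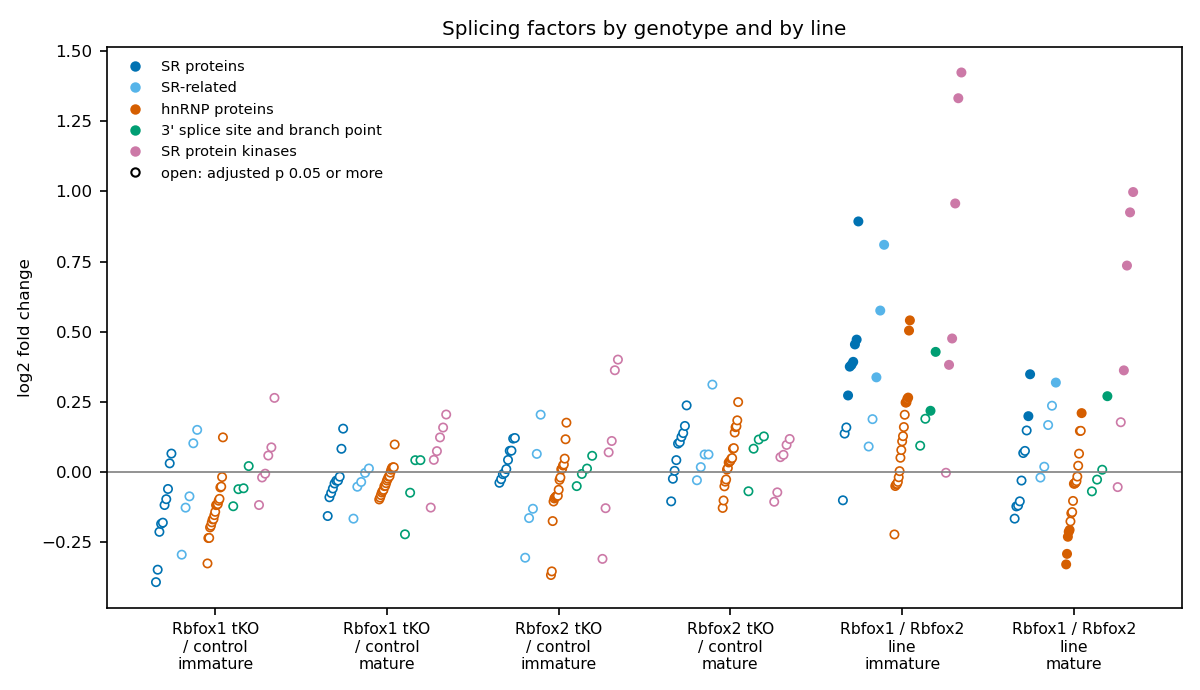
Log2 fold change (y axis) of each tested member for tKO over control within each line and population, and for the Rbfox1 over the Rbfox2 line (x axis), coloured by role, with filled points for an adjusted p under 0.05. Srsf12 and Hnrnpa3, with few counts, are not drawn, the tKO points drawn are open and lie between -0.39 and 0.40, and Clk1 and Clk4 are the highest filled points between the lines at 1.42 and 1.33 in immature and 0.92 and 1.0 in mature cells.

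A larger difference among the members ran between the mouse lines. This comparison, of the 4 Rbfox1-line with the 4 Rbfox2-line mice at equal numbers of tKO and control animals and of each sex, was added after seeing the data. In immature mTEC 22 of 45 members were higher in the Rbfox1 line and 0 lower, against 12.4% higher and 11.6% lower over 12627 features. Over features at 100 CPM or more the balance was the other way, with 293 higher and 625 lower of 2418. The median log2 difference was 0.22 over the members and -0.0014 over all features, and in 21 members every Rbfox1-line library lay above every Rbfox2-line library, as 12.2% of all features did, while 0 members lay entirely below, as 11.6% did.

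By role, 5 of 6 kinases, 7 of 11 SR proteins, 3 of 5 SR-related proteins, 2 of 4 factors of the 3′ splice site and 5 of 19 hnRNPs were higher in the Rbfox1 line. The same direction held in control and in tKO mice taken separately for all 22. These were picked by a fit over both sets of mice, so this agreement is a description and no separate support. Clk1, Clk2, Clk3, Clk4, Srsf7, Tra2a, Hnrnph1 and Sf3b1 were called in each of the 17 other settings. The count stayed at 19 to 28 under other scalings and DESeq2, with 0 lower under each of these.

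Clk1, which releases SR proteins from nuclear speckles, showed the largest difference in immature cells. Its immature libraries were at 149.5, 150.2, 152 and 160.5 CPM in the Rbfox1 line (control, control, tKO, tKO) and at 51.9, 59.1, 54.2 and 64.0 CPM in the Rbfox2 line. The mature libraries were at 109, 125, 118 and 137 CPM in the Rbfox1 line and at 64.4, 58.9, 56.1 and 77.3 CPM in the Rbfox2 line. Every Rbfox1-line library lay above every Rbfox2-line library, whatever the genotype or population, and Clk1 was 2.68-fold higher in immature (log2 difference 1.42 ± 0.093, edgeR adjusted p = 7.37e-09) and 1.90-fold higher in mature cells (0.92 ± 0.090, edgeR adjusted p = 1.23e-06).

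Clk4, its nearest paralog and the member with the largest difference in mature cells, was at 65.4, 76.5, 59.6 and 71.9 CPM in immature Rbfox1-line and 22.7, 25.1, 33.4 and 28.9 CPM in immature Rbfox2-line libraries. In mature cells it was at 46.0, 49.9, 52.8 and 57.9 against 26.4, 24.3, 23.3 and 29.1 CPM. The lines did not overlap, and the gene was 2.52-fold higher in immature and 2.0-fold higher in mature Rbfox1-line cells (edgeR adjusted p = 2.66e-06 and 1.96e-06). Clk2 and Clk3 were higher by 0.96 ± 0.15 and 0.48 ± 0.099 in immature and by 0.74 ± 0.13 and 0.36 ± 0.077 in mature cells on the log2 scale, so that all 4 CLKs were higher in both populations. Srpk1 was higher by 0.38 ± 0.092 in immature cells, and Srpk2 passed in neither population.

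Srsf7, an SR protein that also takes part in mRNA export, was at 170, 200, 153 and 167 CPM in immature Rbfox1-line and 102, 86.0, 91.7 and 93.6 CPM in immature Rbfox2-line libraries. Tra2a was at 111, 136, 99.8 and 135 CPM against 65.9, 63.3, 65.3 and 81.9 CPM in the same libraries. Neither gene overlapped between the lines in immature cells, and Srsf7 and Tra2a were 1.86-fold and 1.75-fold higher in the Rbfox1 line (edgeR adjusted p = 2.66e-06 and 0.000101). Hnrnph1, which binds G-rich elements, was at 474 ± 23.8 against 326 ± 29.3 CPM (SD, n = 4), and Sf3b1 at 341 ± 9.45 against 254 ± 8.74 CPM. The remaining calls, among them Acin1, Hnrnpdl, Srsf1, Srsf2, Srsf3, Srsf6, Srsf10, Tra2b and U2af2, lay between 0.22 and 0.58 on the log2 scale.

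**Figure D5:**
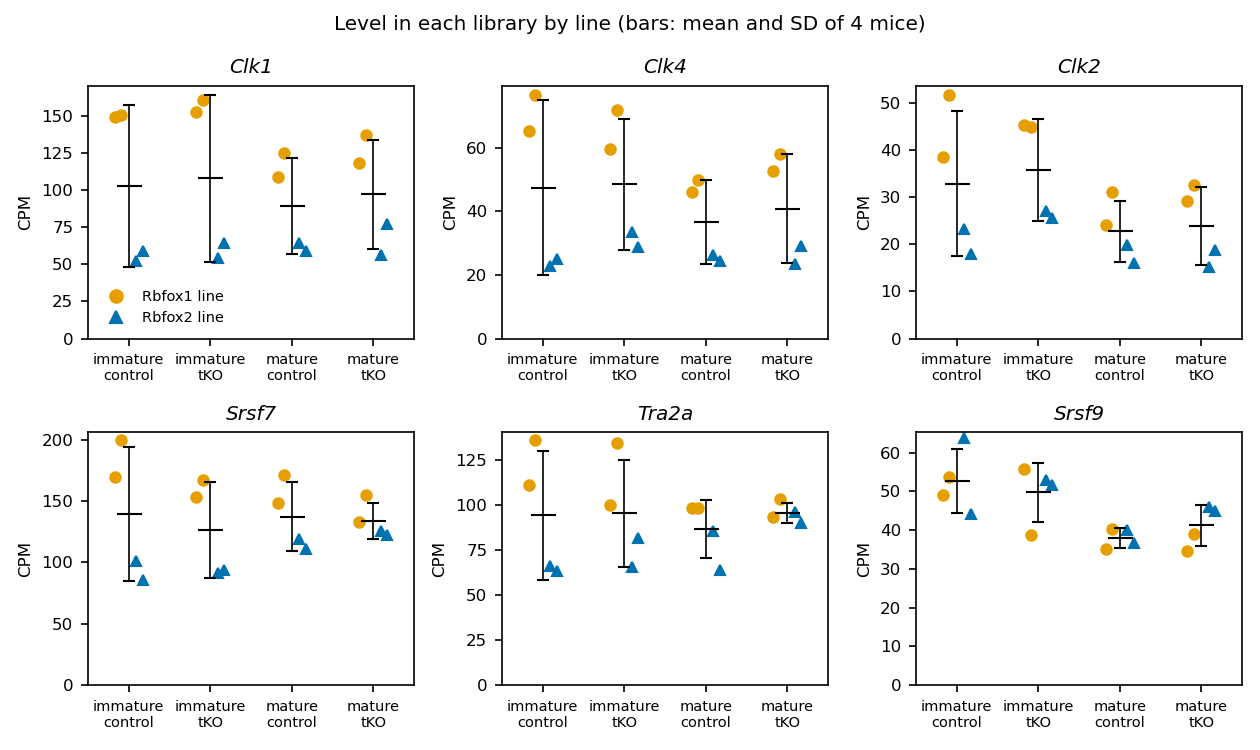
Level of 6 members in each library (y axis, normalized CPM on a linear axis from 0), split by population and genotype (x axis), with circles for the Rbfox1 and triangles for the Rbfox2 line and bars for the mean and SD of the 4 mice of both lines. The Clk1 points of the Rbfox1 line lie at 109 to 160.5 CPM and those of the Rbfox2 line at 51.9 to 77.3 CPM in both populations and genotypes.

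In mature mTEC the difference between the lines was smaller and went both ways, with 9 members higher and 5 lower in the Rbfox1 line, against 7.22% and 6.61% of 17398 features. Every Rbfox1-line library lay above every Rbfox2-line library in 10 members (9.18% of all features) and below in 6 (9.29%). The 9 higher were Clk1 to Clk4, Srsf7, Srsf5, Acin1, Sf3b1 and Hnrnph1, and 8 of these, all but Srsf5, were also called in immature cells, each with a larger difference there. The 5 lower were hnRNPs: Hnrnpab (-0.33 ± 0.062), Hnrnpa0 (-0.29 ± 0.067), Hnrnpd (-0.23 ± 0.069), Hnrnpa1 (-0.21 ± 0.063) and Hnrnpul1 (-0.21 ± 0.064). Scaled by library totals alone, 12 members in place of 9 were called higher and 2 in place of 5 lower, against 9.63% and 4.46% of all features.

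The line cannot be told apart from the floxed allele, the strain background, the litter, or anything else that differed between the 2 sets of mice. Other measures moved with it in immature cells. The cycling list was higher in the Rbfox1 line for 8 of 10 genes, with summed levels of 900 to 1331 against 453 to 610 CPM, and of the mature mTEC markers 4 of 7 were higher, with Aire at a log2 difference of 2.71 and Cd80 at 1.74, and 2 lower. Fibroblast markers were lower in the Rbfox1 line for 5 of 5 genes (327 to 677 against 1750 to 2622 CPM), as were 3 of 3 endothelial markers (19.2 to 51.3 against 57.9 to 183 CPM). Immature mTEC markers were lower for 4 of 6 genes (5856 to 6717 against 8149 to 8685 CPM), with Pdpn at -0.65 and Krt14 at -0.62, as were 3 of 4 tuft cell markers (384 to 619 against 644 to 748 CPM) and 2 of 4 cortical TEC markers (162 to 194 against 205 to 250 CPM). In mature cells 2 of 10 cycling genes were higher, with Mki67 at 0.56, and of 8 mature mTEC markers 2 were higher, with Aire at 1.0, and 3 lower. There 2 of 6 immature mTEC markers, 5 of 10 immediate early and heat shock genes, 2 of 5 fibroblast markers (Dcn at -0.61) and 1 of 4 myeloid markers (Lyz2 at -0.40) were lower. The helicase gene Ddx39b and the nuclear long noncoding RNA Neat1 were higher by 1.61 and 1.36 in immature and by 1.09 and 0.95 in mature cells. The part of these differences in the levels of the members was not tested.

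Of the other splicing genes 14 of 92 were higher and 1 lower in immature cells of the Rbfox1 line, against 12.4% and 11.6% of all features, and 6 were higher and 14 lower in mature cells, against 7.22% and 6.61%. Of the nonsense-mediated decay genes 5 of 10 were higher in immature cells. The members summed to 11821 to 13281 CPM in immature libraries of the Rbfox1 line and 10404 to 11073 CPM in those of the Rbfox2 line, and to 9415 to 10093 and 9569 to 10185 CPM in mature libraries.

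The maturation difference of the members also depended on the line. The interaction, added after seeing the data and tested over all 16 libraries, was called for 11 of 45 members, all with a more negative mature-to-immature difference in the Rbfox1 line, against 3.2% of 16893 features in that direction and 1.97% in the other, in which 0 members were called. They were 5 SR proteins, Srsf1 (-0.51 ± 0.097), Srsf2 (-0.48 ± 0.11), Srsf3 (-0.48 ± 0.093), Srsf6 (-0.50 ± 0.11) and Srsf7 (-0.54 ± 0.13), with Tra2a (-0.57 ± 0.16), Clk1 (-0.49 ± 0.14), Hnrnpa1 (-0.37 ± 0.096), Hnrnph1 (-0.33 ± 0.091), Hnrnpu (-0.28 ± 0.083) and Hnrnpa2b1 (-0.28 ± 0.083).

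Srsf1, the founding SR protein, showed the pattern in both genotypes, with a log2 difference between mature and immature cells of -0.28 ± 0.095 in Rbfox1 control and -0.20 ± 0.097 in Rbfox1 tKO mice but 0.22 ± 0.087 in Rbfox2 control and 0.32 ± 0.099 in Rbfox2 tKO mice. Srsf7 was at -0.20 and -0.16 in Rbfox1 control and tKO mice and at 0.30 and 0.42 in Rbfox2 control and tKO mice. The 5 SR proteins were called in each of the 23 other settings of this fit, whereas the count of all members called ran from 5 to 16. With 1 library left out it dropped to 5 without Rbfox1 control immature replicate 3 or Rbfox1 tKO mature replicate 2, to 6 without Rbfox2 tKO mature replicate 2, and to 7 without Rbfox1 control mature replicate 2, Rbfox2 control mature replicate 1, Rbfox2 control immature replicate 2, Rbfox2 tKO mature replicate 1 or Rbfox2 tKO immature replicate 1. All 10 cycling genes had the same sign and were called in this interaction, and their part in it was not tested.

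Between mice of 1 condition the members varied about as features of like level did, and 20 of 45 members had a standard deviation above that of most such features. Hnrnpdl, whose transcripts are known to be subject to autoregulated splicing, ranked highest, with a standard deviation within conditions of 0.25 on the log2 scale, higher than 97.1% of 723 features of like level (median 0.098). Tra2a followed, with a standard deviation of 0.19, higher than 90.3% of 2203 features of like level. In each line the Hnrnpdl level deviated from its condition means in the same direction in all 4 libraries of a replicate number. These libraries came from 1 tKO and 1 control mouse, which shared their sex. The lower libraries were those of the females in the Rbfox1 line and of the males in the Rbfox2 line. With 2 mice per condition, the deviations of the other mice mirror these by construction. The 16 Hnrnpdl libraries ranged over 161 to 243 CPM in mature and 150 to 356 CPM in immature cells. Hnrnpa2b1, by contrast, had a standard deviation of 0.044, and 3.49% of 86 features of like level were lower. Several members share exon bases with a gene on the other strand, among them Hnrnpab with Phykpl (29.1%) and Clk3 with Edc3 (15.2%), and no source used here gives the strand setting of the authors' counting, so small differences in these genes carry that uncertainty.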

How the data were processed

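Mature and immature mTEC of 8 mice were profiled in 16 poly(A), stranded, paired-end libraries. The authors mapped reads to mm10 with HISAT2 (2.1.0), used Picard (2.10.9) and counted reads with featureCounts (1.6.0), per the submitters' processing notes. The deposited counts are raw read counts per feature, from libraries that the column names give as down-sampled to 14500000 (mature) and 10000000 (immature) reads, over Ensembl genes and loci the authors assembled. Samples were grouped by GEO's labels. Gene names, positions and exon lengths were taken from GENCODE for GRCm38, and promoter sequences from RefSeq (GRCm38.p6).

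Counts were fitted with edgeR (4.0.16, R 4.3.3): normalization by TMM, a filterByExpr cutoff of 10 counts, quasi-likelihood tests, Benjamini-Hochberg adjustment over all features tested, and calls at an adjusted p under 0.05. Standard errors were derived from the F statistic. Maturation was tested in control and in tKO mice with line as a covariate. tKO effects were tested over the 8 libraries of a population. The line comparisons were added after seeing the data. DESeq2 (1.42.0) and other settings served as alternatives, and scripts were tested on simulated data. Named genes were the most extreme called and the highest and lowest members of the SR and hnRNP groups, all members of the smaller groups, the lowest p of each tKO comparison, called interactions and filtered members, and the choice of further members named beside them followed their values. The members and lists were chosen with earlier results of these data known.

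Mature and immature libraries of the same number came from the same mouse (correlations of their deviations from the group means of 0.0954 to 0.199). tKO and control mice of the same line and number had the same sex, and the study used littermate controls, but no source used here says that a number marks a litter. Their correlations were -0.0057 to 0.14, so the numbers were not taken to pair them. Replicates are separate mice. Pairs of replicates differed by 1.78 to 2.74 in chi-square per degree of freedom, so no library was a repeat of another.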

Additional observations from a re-analysis of the deposited data

Results flagged for a closer look

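Among 124 sets of 4 libraries of 1 population and genotype, 3 members had a library that stood far from the other three by Dixon's test at the 95% level, and chance alone flags about 1 set in 20. Srsf5 was at 206 CPM in Rbfox2 tKO immature replicate 2 and at 261 to 266 CPM in the other tKO immature libraries. Hnrnpa0 was at 349 CPM in Rbfox2 control immature replicate 1 and at 286 to 289 CPM in the other control immature libraries. Hnrnpl was at 303 CPM in Rbfox2 tKO immature replicate 1 and at 352 to 357 CPM in the others.

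The difference between mature and immature cells differed between the mouse lines for 11 members, by a test of the difference itself (edgeR interaction, added after seeing the data). On the log2 scale the Rbfox1-line value minus the Rbfox2-line value was -0.51 for Srsf1, -0.48 for Srsf2, -0.48 for Srsf3, -0.50 for Srsf6 and -0.54 for Srsf7. It was -0.57 for Tra2a, -0.49 for Clk1, -0.37 for Hnrnpa1, -0.28 for Hnrnpa2b1, -0.33 for Hnrnph1 and -0.28 for Hnrnpu. For Tra2a the mature cells were at -0.32 and -0.25 relative to immature cells in Rbfox1 control and tKO mice and at 0.22 and 0.34 in Rbfox2 control and tKO mice. For Clk1 the same values were -0.35 and -0.30 in the Rbfox1 line and 0.17 and 0.19 in the Rbfox2 line.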

How the results depend on the processing

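Of the 28 members called lower in mature cells of control mice, 14 kept that call under each other setting that set no fold threshold and tested them, and 14 lost it under at least 1. The matching share of all features is not given. In control mice the 28 lower and 1 higher members became 18 lower under DESeq2 (16.45% of all features), 16 with no filter on low counts (9.03%), 13 lower and 2 higher when every library had to hold 10 counts (31.05% and 29.24%), and 18 (23.7%) when libraries were thinned to the smallest total. They were 31 lower and 0 higher in the Rbfox1 line alone, 18 lower and 4 higher in the Rbfox2 line alone, and 1 lower and 0 higher over 2-fold. Other normalizations gave 20 to 22 lower, Ensembl genes alone 26, and leaving out 1 library 20 to 31 lower with 1 higher. In tKO mice the 16 lower and 1 higher became 10 lower and 3 higher when every library had to hold 10 counts (31.12% and 29.22% of all features), 10 and 5 in the Rbfox2 line alone, and 1 and 0 over 2-fold. There 2 were higher under DESeq2, DESeq2 size factors, library totals and no filter, and leaving out 1 library gave 13 to 20 lower. The cause was not tested, except that a stricter filter or 1 line alone uses fewer features or fewer mice. Scaling by library totals moved the median of all features by under 0.1 on the log2 scale, from 0.026 to 0.081.

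With the mouse as a replicate block, 26 members were lower and 1 higher in control mice and 16 and 1 in tKO mice, and 16 in place of 11 members were called in the interaction of line and maturation. With the replicate number as a block, 0 members were called in any tKO comparison, as without it, and it changed no other call on the counts given here. No block could be used between lines, since mice are nested in lines. In the mature line comparison, the 9 higher and 5 lower became 12 higher and 2 lower under library totals, 3 and 0 in control mice alone, 5 and 1 in tKO mice alone, and 0 and 0 over 2-fold. Leaving out 1 library gave 6 to 9 higher and 2 to 6 lower. In the immature line comparison the 22 higher became 11 in tKO mice alone and 2 over 2-fold, and leaving out 1 library gave 0 to 1 lower (Rbfox2 control immature replicate 2). The 11 of the interaction ranged over 5 to 13 with 1 library left out. No shares of all features are given for these settings. A changed count therefore cannot be read as particular to the members.

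Of 45 members, 13 in control and 21 in tKO mice had both signs on the log2 scale among the settings, and 1 of them, Clk4 in control mice, was called lower and stood at 0.10 in the Rbfox2 line alone. Srsf1, Srsf3, Srsf7 and Srsf10 were at -0.28, -0.30, -0.20 and -0.34 in the Rbfox1 line alone and 0.22, 0.22, 0.30 and 0.21 in the Rbfox2 line alone in control mice. Among the other members, none called, the values in control mice included, in the Rbfox2 line alone, Srsf2 (0.10), Tra2a (0.22), Tra2b (0.059) and Clk1 (0.17), in the Rbfox1 line alone Srrm1 (-0.039), at 10 or more counts per library Tra2a (0.037) and U2af1 (0.042), and after thinning Tra2a (0.011). The value of Srrm1, mature vs immature, control mice, was -0.0098 after thinning. In tKO mice they included, in the Rbfox2 line alone, Srsf6 (0.058), Hnrnpab (0.059), Hnrnpdl (0.031), U2af1 (0.062) and Clk1 (0.19), in the Rbfox1 line alone Srsf2 (-0.098), Hnrnpa2b1 (-0.14), Tra2a (-0.25), Tra2b (-0.087) and Acin1 (-0.18), at 10 or more counts per library Hnrnpab (0.021), Sf1 (0.059) and Clk1 (0.023), and after thinning U2af1 (0.016). Leaving out 1 library gave -0.022 to 0.046 for Srrm1 and -0.21 to 0.028 for Tra2a in control mice. In tKO mice it gave -0.056 to 0.16 for Acin1, -0.20 to 0.0036 for Clk1, -0.00026 to 0.093 for Clk3, -0.043 to 0.059 for Hnrnpa2b1, -0.10 to 0.18 for Tra2a and -0.013 to 0.11 for Tra2b.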
